A study of Caenorhabditis elegans with 161 samples.

Results

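The abu genes described here are abu-6, abu-7, abu-8, abu-10, abu-11, abu-13, abu-14 and abu-15 of the nematode Caenorhabditis elegans, 8 of the 20687 genes in the count table. They were chosen by name, as the rows whose sequence name carries one of these symbols in the RefSeq annotation (assembly WBcel235, used for names and gene order only). The symbols were listed with earlier results of these data known. Embryos of 20 strains were collected at 0, 60, 180, 270, 440, 650 and 830 min after the 4-cell stage at 20 °C, with 1 library of 10 pooled whole embryos per strain and stage. The strains were lines 502, 508, 516, 517, 522, 529, 530, 536, 550, 552, 555, 564, 566, 570, 573, 575, 593, 597 and 598, together with N2, which bears the name of the species' laboratory reference strain. The study's design text calls all 20 mutation-accumulation strains, and the labels name no mutation in any of them. A second set held 3 repeat libraries of strain 522 at each of 7 time points, lettered A to G here and matched in that order to the stages from 0 to 830 min, because the time field of these libraries contradicts their titles. The 20 strains are separate lines. The deposited sheet of the strain 522 set is named as biological repeats, but nothing in the labels says that these came from separate cultures. A p-value here reflects how far the libraries vary, part of which may be technical.

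The abu genes were named as activated in blocked unfolded protein response, after mutants in which that stress pathway fails. They encode secreted proteins rich in glutamine, asparagine and cysteine, related to the pqn genes (prion-like, glutamine- and asparagine-rich). Members of this family are components of the pharyngeal cuticle, the lining that cells of the feeding organ secrete before hatching and replace at each molt. They are ordered below by when in the embryo they were counted.

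RNA was counted by CEL-Seq, which reads barcoded 3' ends, so a count does not grow with transcript length. Levels are given as CPM, a gene's count scaled by the gene counts of its library. Strain libraries held 5653 to 525902 gene counts, with a median of 79484.5 at 650 min, and the repeats held 58543 to 623958. At this depth 1 count at 650 min was worth between 3.60 and 31.9 CPM, and many members had 0 counts outside their peak. Because whole embryos were pooled, fewer cells of a type and less RNA per cell cannot be told apart.

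The genes lie on 4 chromosomes. On chromosome V, abu-15, abu-6 and abu-7 are consecutive coding genes, and abu-8 follows abu-7 after 6 other coding genes. abu-10 lies on chromosome X, abu-13 on III, and abu-11 and abu-14 on II. The next coding gene to abu-11 is chs-2, a chitin synthase of the pharynx. In the annotation abu-6 overlaps the noncoding RNA C03A7.15 on the other strand, and abu-13 overlaps the coding gene F57B9.3 and the noncoding RNA F57B9.12 there. Use of strand in the counting is not given in the sources used here, so reads of such partners cannot be told apart. Paralogs in this family resemble each other and may share reads, and the separate values of abu-6, abu-7, abu-8 and abu-15 in particular are uncertain. At 650 min abu-6 had 172 counts and abu-7 had 237 over the 20 libraries. In the 11 libraries where abu-7 had at least 10 counts, the ratio of abu-6 to abu-7 counts ran from 0.539 to 0.900, and abu-6 was above abu-7 in none of the 20.

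Over development, 7 of the 8 genes were highest at 650 min and abu-13 was highest at 440 min. The share of the summed stage means that fell at 650 min was 90.9% for abu-14, 91.3% for abu-10, 93.4% for abu-8, 93.9% for abu-7, 95.4% for abu-6, 95.8% for abu-15 and 96.6% for abu-11. For abu-13 it was 18.1%, against 76.8% at 440 min. Strain by strain, abu-11 and abu-14 peaked at 650 min in all 20 strains, abu-8 in 19, abu-10 in 18, abu-7 in 17, abu-6 in 16 and abu-15 in 15, and 4 strains had no abu-15 count at any stage. abu-13 peaked at 440 min in 17 strains and at 650 min in the other 3, which were lines 508, 516 and 570.

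**Figure D1:**
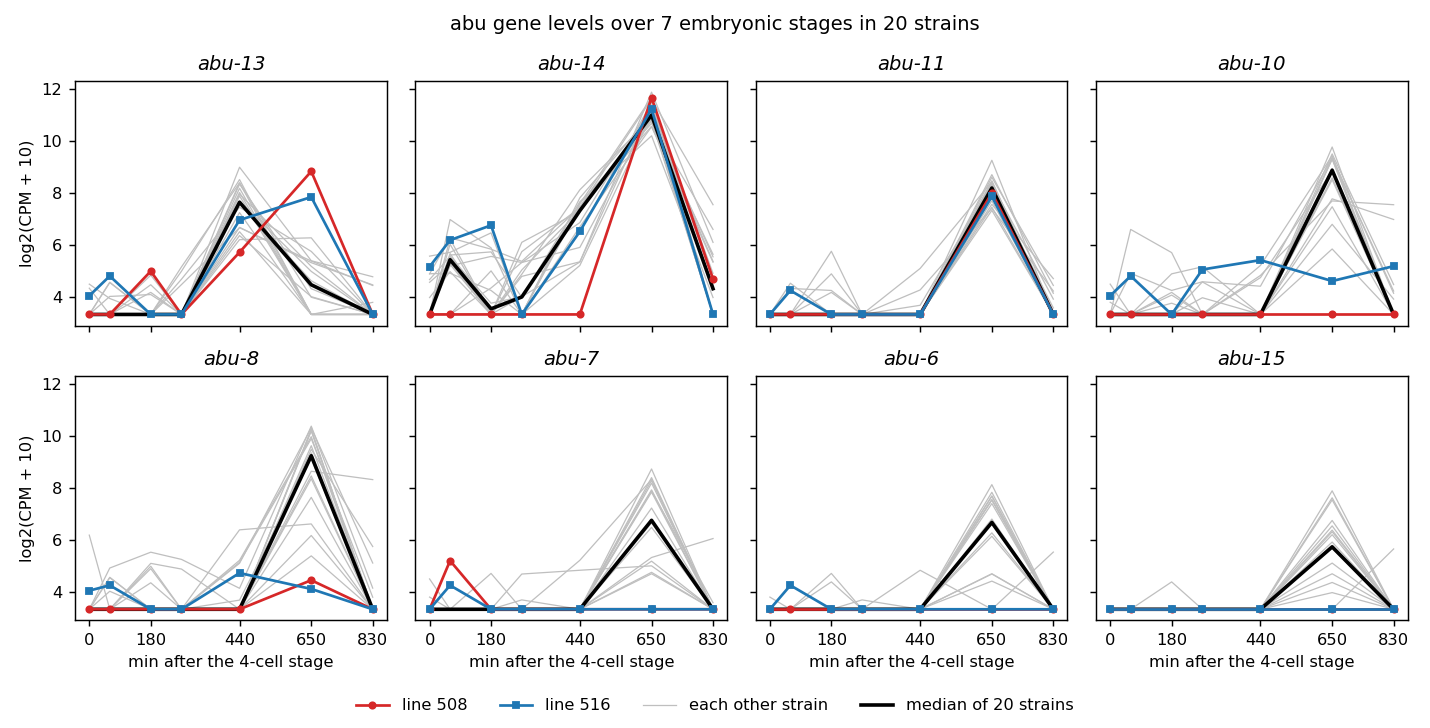
Level of each abu gene, as log2(CPM + 10), against min after the 4-cell stage. Red circles are line 508, blue squares line 516, grey lines the other strains (1 library per point) and the black line the median of all 20. The median of abu-13 peaks at 440 min and those of the other 7 genes at 650 min, while lines 508 and 516 stay at the bottom at 650 min for abu-10, abu-8, abu-7, abu-6 and abu-15 but not for abu-13, abu-14 and abu-11.

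abu-13 and abu-14 were already up at 440 min. At 440 min abu-13 ran from 42.5 to 498 CPM with a median of 190, and it averaged 203 ± 121 CPM at 440 min and 3.75 ± 8.07 CPM at 270 min (SD, n = 20 each). The ranges did not overlap, and abu-13 was higher at 440 min in 20 of 20 strains. The lowest value at 440 min, that of line 508, was 1 count, so the gap between the ranges rests on it. At 440 min abu-14, a gene whose mutation disrupts the pharyngeal cuticle, averaged 124 ± 72.8 CPM with a range from 0 in line 508 to 268 in line 530, and at 270 min it averaged 13.5 ± 17.4 CPM. It was higher at 440 min in 19 strains and was 0 at both stages in line 508, whose 440 min library was shallow at 23525 counts.

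In edgeR's quasi-likelihood test with Benjamini-Hochberg adjustment over all genes, no member passed the filter on low counts for 440 against 270 min, so their tests come from the fit with no filter. There abu-13 rose by 5.04 ± 0.37 on the log2 scale (SE, adjusted p = 9.02e-21) and abu-14 by 3.59 ± 0.34 (adjusted p = 3.30e-15). Including abu-8, 3 members rose by the rule of an adjusted p under 0.05 and at least a 2-fold change, beside 23.4% of the genes tested. The abu-8 call rested on 13 counts at 440 min and 3 at 270 min. It was lost with strain as a block (log2 change 1.40, adjusted p = 0.164), and strains pair the libraries here, and it was lost with DESeq2 as well (adjusted p = 0.316). abu-6, abu-7, abu-10 and abu-11 had 1, 2, 9 and 3 counts over all 20 libraries at 440 min, and abu-15 had 0.

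Between 440 and 650 min the other genes came on. abu-11 ran from 151 to 602 CPM at 650 min with a median of 282, and at 440 min it had a median of 0 and a highest value of 24.1 CPM. The ranges did not overlap, and abu-11 was higher at 650 min in 20 of 20 strains. It held 592 counts at 650 min and 3 at 440 min, a ratio of 190 with a 95% exact counting interval from 64.7 to 924. The level of abu-14 at 650 min lay between 1166 CPM in line 552 and 3758 CPM in line 575 with a median of 2038, and at 440 min between 0 and 268 CPM with a median of 149. Here too the ranges did not overlap and all 20 strains were higher at 650 min, by 4.43 ± 0.21 on the log2 scale (edgeR, SE, adjusted p = 1.73e-24).

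abu-8, abu-10, abu-7, abu-6 and abu-15 appeared at 650 min in most strains but not in all. abu-8 averaged 607 ± 470 CPM at 650 min, from 7.20 in line 516 to 1315 in line 564, and 8.80 ± 17.9 CPM at 440 min (SD, n = 20 each). abu-10 averaged 406 ± 260 CPM at 650 min, from 0 in line 508 to 862 in line 536, and 5.29 ± 10.2 CPM at 440 min. Both were higher at 650 min in most strains, 19 for abu-8 and 18 for abu-10, and the ranges of the stages overlapped through the lowest strains.

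abu-7 averaged 146 ± 130 CPM at 650 min and 2.26 ± 7.11 CPM at 440 min, and abu-6 averaged 101 ± 87.5 CPM at 650 min and 0.916 ± 4.10 CPM at 440 min. Their highest values at 650 min, 413 CPM for abu-7 and 268 CPM for abu-6, were both in line 598. abu-15 averaged 58.2 ± 67.3 CPM at 650 min, from 0 in 5 strains to 226 CPM in line 597, and was at 0 counts in all 20 libraries at 440 min. Set against the floor of 3 counts over that group, abu-15 was at least 27.6-fold higher at 650 min. abu-7 had 237 counts at 650 min and 2 at 440 min, a ratio of 114 (95% exact counting interval 31.2 to 947), and abu-6 had 172 and 1, a ratio of 166 (29.3 to 6576).

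Only abu-11 and abu-14 passed the filter on low counts for 650 against 440 min, and both rose, as did 21.0% of the genes tested. Both passed through their counts at 650 min, where they were high, so a rise was the call open to them. With no filter, 7 of the 8 members rose and abu-13 fell, where 21.1% of genes rose and 10.9% fell. In that fit the log2 change was 6.48 ± 0.49 for abu-8 (SE, adjusted p = 4.35e-20) and 6.36 ± 0.45 for abu-10 (adjusted p = 1.95e-21), and the adjusted p was 1.04e-15 for abu-7, 1.12e-14 for abu-6 and 1.13e-09 for abu-15. The median log2 change of the 8 was 6.04, against 0.23 over all genes tested with no filter. Because the members were chosen with earlier results of these data known, this contrast is a description and not a test.

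abu-13 went the other way. At 650 min it averaged 47.7 ± 106 CPM, with a median of 12.2 and a highest value of 445 CPM in line 508, against 203 ± 121 CPM at 440 min. It was lower at 650 min in 17 strains and higher in lines 508, 516 and 570, and the ranges overlapped. With no filter abu-13 fell by 1.54 ± 0.37 on the log2 scale (SE, adjusted p = 0.000382). The change was -2.18 without line 508, -2.02 without line 516 and -3.21 without both lines, the last chosen after seeing the data. With strain as a block it was -2.22.

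At 830 min all 8 genes were low again. abu-14 averaged 25.8 ± 42.7 CPM at 830 min, from 0 to 177, and 2239 ± 707 CPM at 650 min (SD, n = 20 each). It was lower at 830 min in 20 of 20 strains with no overlap, and fell by 6.86 ± 0.28 on the log2 scale (edgeR, SE, adjusted p = 4.02e-25). abu-11 averaged 2.54 ± 4.73 CPM at 830 min and 283 ± 107 CPM at 650 min, was lower in 20 of 20 strains with no overlap, and fell by 5.78 ± 0.27 (adjusted p = 1.85e-23). abu-10 fell by 4.55 ± 0.52 (adjusted p = 2.21e-10).

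Those 3 passed the filter on low counts, and all 3 fell, beside 13.6% of the genes tested. With no filter all 8 members fell, beside 9.56% of genes, and the smallest drop was that of abu-15, which fell by 3.02 ± 0.56 on the log2 scale (SE, adjusted p = 1.27e-05).

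N2 held most of the counts of abu-10 and the chromosome V genes at 830 min. Its 830 min library gave 9 of the 9 counts of abu-6 at that stage, 10 of 10 of abu-15, 14 of 15 of abu-7, 77 of 87 of abu-8 and 29 of 35 of abu-10, while it held 13.4% of all gene counts at 830 min. For abu-8 this was 308 CPM in N2 at 830 min, against 43.4 CPM in the next highest strain, and for abu-6, abu-7 and abu-15 N2 was the one strain that was higher at 830 than at 650 min. For abu-10 the one strain higher at 830 than at 650 min was line 516, with 1 count at 830 min and 4 at 650 min. abu-14 had 5 of its 37 counts in N2. The 650 min library of N2 held only 33541 counts, and there abu-8 had 13 counts, 388 CPM.

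Without N2 the drop after 650 min was deeper for abu-6, abu-7, abu-8, abu-10 and abu-15, while for abu-14 the log2 change was -6.82 without N2 and -6.86 with it. In pooled counts the drop of abu-10 was 19.2-fold with N2 and 97.8-fold without it. For abu-11 it was 59.7-fold and 93.7-fold, with overlapping counting intervals. The log2 change between 650 and 830 min without N2 was -6.29 ± 0.52 for abu-8, against -3.91 ± 0.47 with N2, and -6.23 ± 0.62 for abu-7, against -3.98 ± 0.51 with N2 (edgeR with no filter, SE). abu-6 and abu-15 then had 0 counts at 830 min and, set against the floor of 3 counts over the group, were at least 45.8-fold and at least 22.9-fold lower than at 650 min. For abu-13 the change was -3.41 ± 0.61 in all strains and -1.74 ± 0.54 without lines 508 and 516.

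The strains differed at 650 min in a graded way. The summed level of abu-6, abu-7, abu-8, abu-10 and abu-15, a grouping chosen after the values were seen and so given with no test, was 11.7 CPM in line 508, 21.6 in line 516, 126 in line 575, 196 in line 570, 306 in line 502, 407 in line 550 and 626 in N2. It then ran from 978 CPM in line 566 to 2639 CPM in line 536 over the other 13 strains. In line 508 this was 1 count among 85326, and in line 516 it was 6 counts among 277884. Both libraries were deep enough to show the summed genes at the levels of most strains. For abu-15 alone depth is a limit: 0 counts in line 508 had an upper limit of 43.2 CPM, against a median of 45.1 CPM in the others. abu-6 and abu-15 also had 0 counts in line 502 and in N2. For the sum, the ratio of line 508 to the median of the other 19 strains was 0.00946. Line 508 was singled out with earlier results of these data known, so its ratio and its rank are descriptions of a chosen extreme. The exact Poisson interval of the summed level in line 508 was 0.297 to 65.3 CPM, which covers counting error only.

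The near-absence in line 508 held for those 5 genes and not for the other 3. In line 508 abu-14 had 277 counts, 3246 CPM, against a median of 2012 CPM in the other strains, and it was the third highest of 20. abu-11 had 21 counts, 246 CPM in line 508, against a median of 288 CPM in the others, well inside their range. abu-13 had 38 counts, 445 CPM in line 508, the highest of 20, against a median of 9.87 CPM in the others. All 8 genes summed gave 3950 CPM in line 508 and a median of 3696 CPM in the others, a ratio of 1.07.

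Line 516, which was noticed after the values were seen, showed the same split in its own library. At 650 min it had 0 counts of abu-6, abu-7 and abu-15, 2 of abu-8 and 4 of abu-10. It had 61 counts of abu-13 (219 CPM), 62 of abu-11 (223 CPM) and 665 of abu-14 (2393 CPM). Its 650 min library is named in the deposited sheet of reruns, and that of line 508 is not. At 830 min line 508 had 1 count of abu-14 and 0 of the other 7 genes, and line 516 had 1 count of abu-10 (26.3 CPM) and 0 of the others. No sampled stage of either line thus held the sum of the 5 genes at the 650 min levels of most strains.

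**Figure D2:**
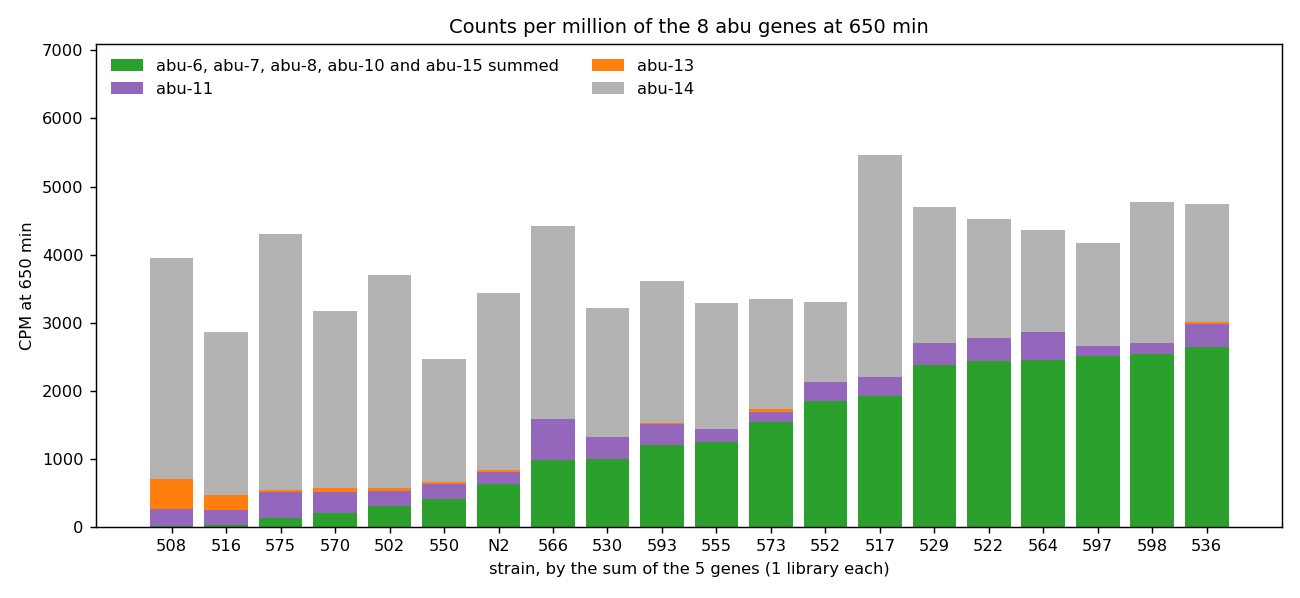
CPM of the abu genes at 650 min in each of the 20 strains (1 library each), stacked and ordered by the sum of abu-6, abu-7, abu-8, abu-10 and abu-15 in green. The green part runs from 11.7 CPM in line 508 to 2639 CPM in line 536, while abu-14 (grey) and abu-11 (purple) are present in every strain and abu-13 (orange) stands out in lines 508 and 516.

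Spread between strains at 650 min also separated the genes. After taking off the variance that counting alone gives, the coefficient of variation was 29.7% for abu-11 and 30.5% for abu-14, next to a median of 31.2% over the 3011 genes with a mean of at least 50 CPM at that stage. It was 61.1% for abu-10, 75.9% for abu-8, 77.8% for abu-6, 83.4% for abu-7, 103.8% for abu-15 and 214% for abu-13. Without lines 508 and 516 it was 48.4% for abu-10, 64.7% for abu-8, 66.0% for abu-6, 72.0% for abu-7, 92.7% for abu-15 and 66.1% for abu-13.

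The libraries collected at 650 min also differed in how late their whole profile looked. A stage position was computed for each as its correlation with the mean profile at 830 min minus that with the mean profile at 440 min, over 4107 genes with the abu and pqn genes and the strain itself left out. It ran from 0.0595 to 0.264 at 650 min, from 0.275 to 0.389 at 830 min and from -0.429 to -0.278 at 440 min, so the stages did not overlap. The lowest positions at 650 min were those of line 508 (0.0595), line 516 (0.0642) and line 575 (0.122), and the highest was that of line 598 (0.264). At 830 min the position of line 508 was the highest of all strains (0.389), while line 516 had rank 2 from the lowest (0.319).

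The 8 genes moved with this position in different directions. Over the 20 libraries at 650 min, Pearson's r on log2(CPM + 10) was 0.95 for abu-7, 0.94 for abu-8, 0.93 for abu-10, 0.89 for abu-6 and 0.83 for abu-15. For abu-13 it was -0.89, for abu-14 -0.58 and for abu-11 0.04. Over the 18 libraries without lines 508 and 516, the 2 farthest from the median, it was 0.91, 0.89, 0.85, 0.87 and 0.82 for those 5 genes, and -0.76, -0.57 and -0.08 for abu-13, abu-14 and abu-11. Among the 3011 genes with a mean of at least 50 CPM at 650 min the median r was -0.03, and 2.19% were above 0.8 and 1.06% below -0.8. Of the 22 other abu and pqn genes of that level, 3 were above 0.8 and 1 was below -0.8. These correlations describe libraries that each give both values, so they share depth and composition, and the part of the stage position in the strain differences was not tested.

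**Figure D3:**
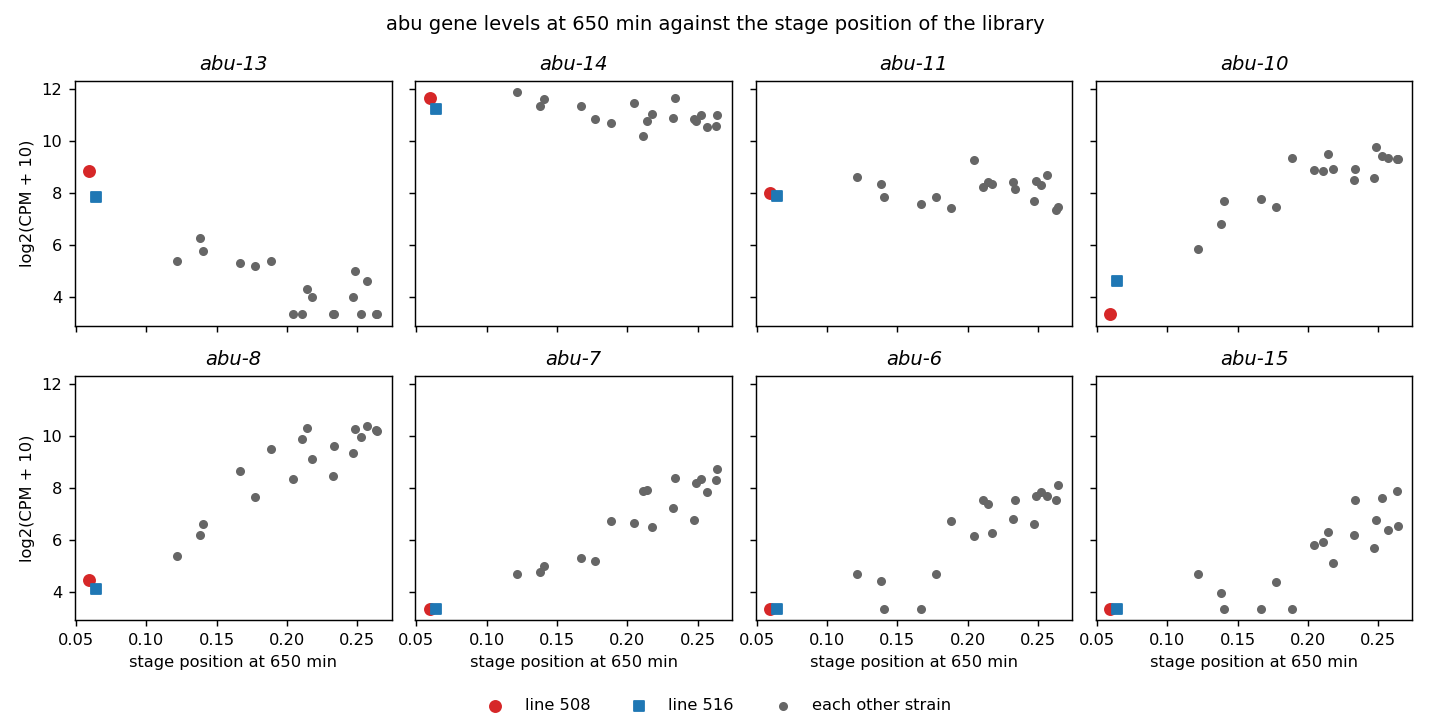
Level of each abu gene at 650 min, as log2(CPM + 10), against the stage position of the library, which has no unit and is higher for a profile nearer to that of 830 min. Each point is 1 of 20 strains, with line 508 as a red circle and line 516 as a blue square. abu-10, abu-8, abu-7, abu-6 and abu-15 are higher at later positions, abu-13 and abu-14 are lower (r = -0.89 and -0.58), and abu-11 has an r of 0.04.

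Among the genes themselves, the 5 that were near 0 in line 508 went together over the 20 libraries, with Spearman's rho from 0.71 for abu-10 with abu-15 to 0.92 for abu-8 with abu-10. abu-10, on chromosome X, went with the 4 genes on chromosome V. The 5 were grouped after their values in these same libraries were seen, and lines 508 and 516 are among the 20. Part of their likeness follows from that choice, and the genes on chromosome V may share reads. abu-13 ran opposite to these 5, with rho from -0.81 for abu-7 to -0.54 for abu-10. abu-14 did so too, with rho from -0.69 for abu-8 to -0.38 for abu-15. abu-11 followed none of the others, with rho from -0.09 for abu-13 to 0.23 for abu-15.

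The sum of all 8 hid this order. Its r was 0.42 with the stage position, -0.45 with log2 total count, 0.48 with the summed pharyngeal muscle genes and 0.34 with the summed other abu and pqn genes (Spearman's rho 0.52, -0.40, 0.45 and 0.35, n = 20). Without the 2 libraries farthest from the median of each measure these r were 0.42, -0.47, 0.36 and 0.24.

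The repeats of strain 522 gave the same order at greater depth. abu-13 had 511, 362 and 360 CPM in the 3 libraries at E, against 0, 0 and 3.21 CPM at D. abu-14 had 351, 341 and 287 CPM at E, against 21.8, 6.80 and 11.2 CPM at D. All 3 libraries at E were above all 3 at D for both genes. They were the 2 members that passed the filter, and both rose, beside 27.7% of the genes tested, with log2 changes of 8.26 ± 0.43 for abu-13 (edgeR, SE, adjusted p = 1.81e-12) and 4.89 ± 0.27 for abu-14 (adjusted p = 4.10e-12). Both passed through their counts at E, so a rise was the only call open to them.

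At F the late genes appeared in all 3 repeats. abu-8 had 1168, 922 and 822 CPM at F and 0 counts in the 3 libraries at E, at least 327-fold higher against the floor of 3 counts over the group. abu-10 had 1196, 809 and 810 CPM at F and 1 count in all at E, a ratio of 972 (95% exact counting interval from 174). abu-11 had 405, 413 and 394 CPM at F and 0 counts at E, at least 137-fold higher. In each case the groups were far apart.

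abu-7 had 397, 243 and 314 CPM at F, abu-6 had 245, 89.0 and 214 CPM and abu-15 had 129, 56.6 and 91.1 CPM, and all 3 genes had 0 counts at E. Against the floor they were at least 115-fold, 72.0-fold and 34.4-fold higher at F. abu-14 had 1366, 1666 and 1186 CPM at F, against 351, 341 and 287 CPM at E, and rose by 2.41 ± 0.30 on the log2 scale (edgeR, SE, adjusted p = 7.77e-08).

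abu-13 had 0, 0 and 1 counts at F, against 112, 173 and 118 counts at E, a log2 change of -8.13 ± 0.47 (edgeR, SE, adjusted p = 1.97e-14). All 8 members passed the filter between E and F, where 7 rose and 1 fell, beside 25.3% and 21.4% of genes. Except for abu-14, which had ample counts at both, they passed through the time point where they were high. For them this fixed the direction of any call. At 650 min 13 of the 20 strain libraries had counts of abu-13, but 9 of these had only 1 or 2, and the other 4 were lines 508 (38 counts), 516 (61), 570 (12) and 550 (5).

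At G the 7 genes were gone again. abu-6, abu-7, abu-11 and abu-15 had 0 counts over the 3 libraries, at least 60.0-fold, 95.5-fold, 114-fold and 28.7-fold lower at G than at F against the floor. abu-8 and abu-10 had 2 counts each at G and abu-14 had 5. These 7 passed the filter and all 7 fell, beside 13.4% of the genes tested. They passed through their counts at F, so a fall was the only call open to them. abu-13 did not pass the filter, with 1 count at G and 1 at F.

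The stage position of the F repeats lay between 0.255 and 0.275, around the top of the strain range at 650 min, and that of the strain 522 library there was 0.214. Strain 522 itself had 2433 CPM of the 5 late genes at 650 min. Beyond counting, the coefficient of variation over the 3 F repeats was 0% for abu-11, 16.4% for abu-14, 17.1% for abu-8, 21.5% for abu-7, 22.9% for abu-10, 33.0% for abu-15 and 42.6% for abu-6, where the median of the 3011 genes was 11.8%. The 0% is a floor: the coefficient of abu-11 was 2.27% before counting was taken off, less than counting alone gives. For each of these 7 genes the coefficient beyond counting was below its value over the 20 strains, a comparison with no test.

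**Figure D4:**
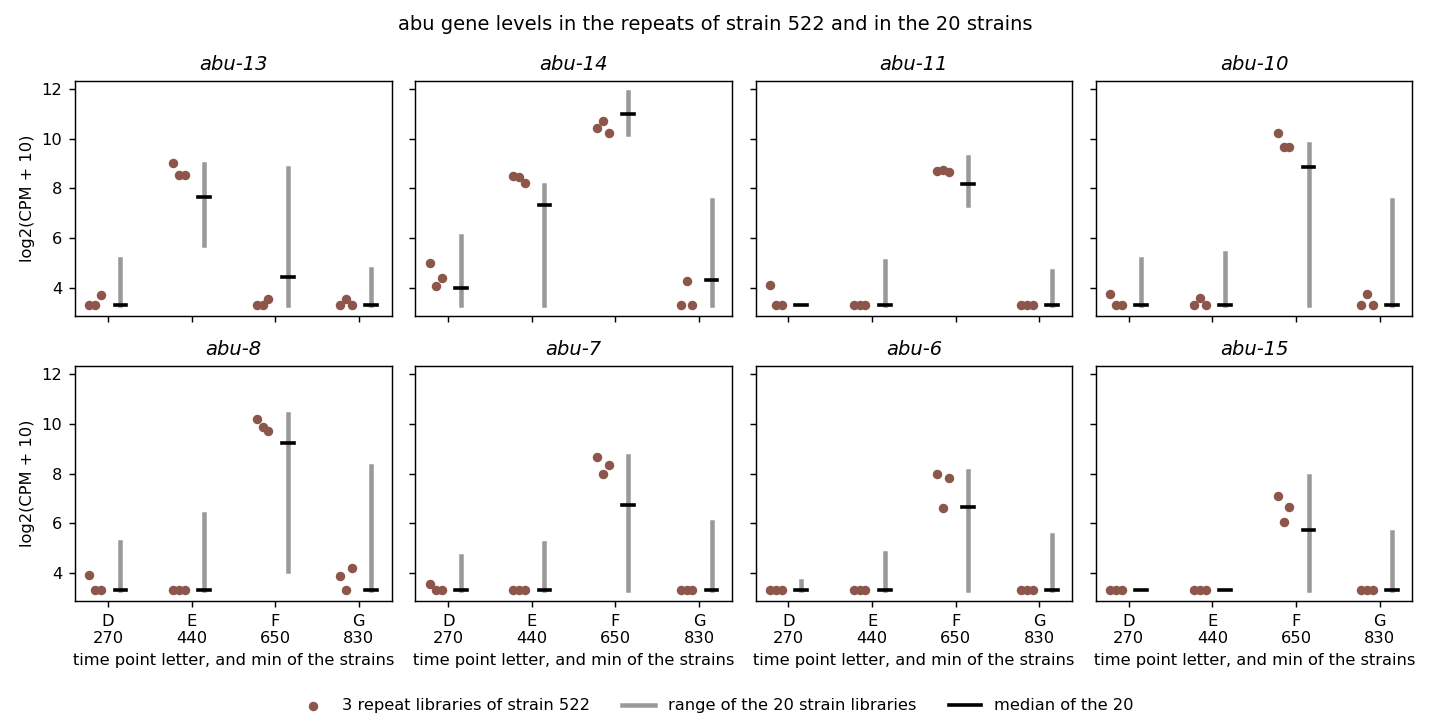
Level of each abu gene, as log2(CPM + 10), at time points D to G. Brown points are the 3 repeat libraries of strain 522, grey bars the range of the 20 strain libraries at the matching stage and black marks their median. abu-13 is high at E and at the bottom at F in the repeats, abu-14 is raised at E and highest at F, and the other 6 genes rise at F alone.

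Other genes of the pharynx were examined beside the abu genes, from lists chosen with earlier results in view, and their counts come from the fit with no filter, where 21.1% of genes rose and 10.9% fell at 650 against 440 min. Of 63 other abu and pqn genes, 55 could be tested, and 20 rose and 7 fell, with a median log2 change of 0.51. The most abundant at 650 min were pqn-74 (1268 ± 510 CPM at 650 min, against 12.98 ± 25.1 CPM at 440 min), pqn-52 (659 ± 198 against 86.6 ± 38.4 CPM) and pqn-71 (343 ± 312 against 3.40 ± 6.70 CPM), and all 3 rose (SD, n = 20).

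Among other family members, levels in line 508 went both ways. pqn-71 had 0 counts in line 508 at 650 min and 2 counts in line 516, and its r with the stage position was 0.90. pqn-74 had 101 counts, 1184 CPM, in line 508, against a median of 1146 CPM in the others, with an r of 0.27. pqn-13, singled out after its values were seen, had 352 CPM in line 508 and 356 CPM in line 516, with an r of -0.90. Of the 22 other family members with a mean of at least 50 CPM at 650 min, 2 were lowest and 2 were highest of all strains in line 508, beside 5.25% lowest and 5.95% highest among the 3011 genes of that level.

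Markers of pharyngeal muscle and gland cells were present in line 508. At 650 min its summed pharyngeal muscle and identity genes were at 3199 CPM, against a range from 1662 to 5196 CPM in the others. Of this sum tni-4 gave 1770 CPM in line 508. The pharyngeal muscle myosin myo-2 was at 469 CPM in line 508, with a mean of 640 ± 276 CPM over the strains. Summed gland and marginal cell genes were at 2485 CPM, against 1755 to 3213 CPM, and phat-5, a secreted gland product, was at 1348 CPM. The marginal cell gene marg-1 had 0 CPM in line 508 and a mean of 1.15 CPM over the strains. The sum therefore says nothing of marginal cells. Summed body wall muscle genes (10266 CPM), gut genes (8497 CPM) and neuronal genes (3211 CPM) of line 508 also lay within the ranges of the other strains. Summed chitin and lining genes, dpy-7 included, were at 539 CPM in line 508, against 120 to 644 CPM in the others. The unfolded protein response genes, at 5356 CPM, were the highest of 20, where the others reached 4920 CPM. Of this sum crt-1 gave 2332 CPM in line 508, with a mean of 1659 CPM over the strains. Genes of the list went both ways, and pdi-2 was at 293 CPM in line 508, with a mean of 386 CPM.

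Of the 10 pharyngeal muscle and identity genes, 6 rose and 3 fell between 440 and 650 min. The contractile genes tni-4 (1550 ± 637 CPM at 650 min, against 448 ± 249 CPM at 440 min), myo-2 and myo-1 rose, and the 3 that fell were the transcription factor genes ceh-22, ceh-34 and peb-1, named after their values were seen. At 830 against 650 min, 2 of the 10 rose and none fell, beside 8.11% and 9.56% of genes. The 2 were myo-1, with 916 ± 267 CPM at 830 min and 393 ± 157 CPM at 650 min, and peb-1. With the filter on low counts none of the 5 genes tested passed the 2-fold rule, and the log2 change of myo-1 was 0.96. With no filter, all 8 abu genes fell in the same interval.

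Gland and marginal cell genes rose in 6 of 8 cases and 1 fell at 650 min, and at 830 min 3 rose and 4 fell. phat-2 had 499 ± 210 CPM at 650 min, 6.96 ± 13.9 CPM at 830 min and 12.7 ± 15.8 CPM at 440 min (SD, n = 20 each). Of 8 chitin and lining genes, 4 rose and 1 fell at 650 min, and 4 fell at 830 min with none rising. The 1 that fell at 650 min was dpy-7, a collagen of the body cuticle that the list holds for contrast and that is not a gene of the pharyngeal lining. The astacin protease nas-7 had 174 ± 87.2 CPM at 650 min, against 3.36 ± 7.84 CPM at 440 min. chs-2 had 88.4 ± 96.1 CPM at 650 min and 108 ± 70.7 CPM at 440 min, a change that did not pass the test (log2 change 0.08, adjusted p = 0.853). At 650 min chs-2 was at 305 CPM in line 508 and 374 CPM in line 516.

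Transcripts listed for the stress pathway in the abu genes' name did not rise with them. Activity of that pathway was not measured. Of the 15 unfolded protein response genes none rose and 6 fell between 440 and 650 min, with a median log2 change of -0.78, and at 830 against 650 min 1 fell and none rose. The chaperone crt-1 had 1659 ± 399 CPM at 650 min and 3204 ± 859 CPM at 440 min, a log2 change of -0.50 ± 0.14, short of the 2-fold rule (edgeR with no filter, adjusted p = 0.00325). xbp-1, the transcription factor of the pathway, had 490 ± 151 CPM at 650 min and 479 ± 167 CPM at 440 min. Over the same interval 7 of 10 gut genes, 6 of 10 body wall muscle genes and 8 of 10 neuronal genes rose, and 1 gut gene fell.

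The genes most like the sum of the 8 over the 140 strain libraries, among 4128 genes with a mean of at least 50 CPM, were cut-2, a cuticlin gene (r = 0.92), C02E7.6 (0.90), C15C6.1 (0.89), lron-2 (0.88) and F41F3.3 (0.88). cut-2 had 6296 CPM at 650 min, 685 CPM at 440 min and 178 CPM at 830 min on average, and was at 7758 CPM in line 508. Over the 20 libraries at 650 min alone the likest were rpl-4, clik-1, vha-13, atp-2 and vha-2, with r from 0.76 to 0.72.

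For the sum of abu-6, abu-7, abu-8, abu-10 and abu-15, the likest genes over the 20 libraries at 650 min were col-130, a cuticle collagen gene (r = 0.98), T14A8.2 (0.97), idpc-7 (0.97), grl-4 (0.97) and nas-1 (0.96). In line 508 at 650 min col-130 and grl-4 had 0 CPM, nas-1 had 11.7 CPM, and idpc-7 and T14A8.2 had 23.4 CPM each. Their means at 650 min were 723 CPM for col-130, 1078 for grl-4, 218 for nas-1, 695 for idpc-7 and 800.3 for T14A8.2. These genes were picked for their likeness to a sum that is lowest in line 508, so their low values there follow from that choice.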

How the data were processed

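Whole-embryo polyA RNA was profiled by CEL-Seq, per the labels' protocols. The deposited values are whole-number read counts for each gene. CASAVA 1.8 and Bowtie2 2.1.0 are named per the submitters' processing notes. Which counter, build, annotation and strand setting the authors used is not given in the sources used here. Molecular identifiers are not mentioned either, and intervals and floors therefore hold counting error alone. Gene symbols came from RefSeq locus tags, which matched 20063 of 20687 identifiers, and gene order from Ensembl's annotation of WBcel235. No sequence is shown. In the repeat sheet 17.8% to 47.7% of reads assigned to a gene, to several genes or to none fell in no feature. These reads stayed out of totals, and 44 further columns (reruns, copies of strain 522, spike-ins) were not used.

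Adjacent stages were compared with edgeR 4.0.16 (R 4.3.3; quasi-likelihood test, TMM scaling, filterByExpr, two-sided, Benjamini-Hochberg over all genes tested), in the 2 groups compared alone. Calls needed a change of at least 2-fold and an adjusted p below 0.05. Members that failed the filter were read from the same fit with no filter. SE is the log2 change over the root of F. DESeq2 1.42.0, RLE scaling, blocks and left-out libraries were alternatives. Strains pair the libraries across stages, because each strain is a line of its own, and the median correlation of same-strain deviations was 0.116 for 650 against 440 min, against -0.00468 between strains. The pairs 440 against 270 min and E against D, and the options without line 516, without lines 508 and 516 and without reruns, were added after seeing the data. Correlations over members carry no p-value, although permutation tests were planned, because the members were chosen with results known. Named genes were all members, up to 3 of each list with the highest mean CPM at 650 min, and the 5 genes of highest r with the summed members. Genes named outside this rule (pqn-13, ceh-22, ceh-34, peb-1, dpy-7, marg-1 and the genes likest to the 5 late members) were chosen after their values were seen. Members, lists and line 508 were chosen with earlier results of these data known. Fits with the filter on low counts were tested on simulated data, for 650 against 440 min and for F against E. The fit with no filter was not tested in this way. Python 3.11.15, scipy 1.17.1 and matplotlib 3.10.9 were used for levels and figures.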

Additional observations from a re-analysis of the deposited data

How the results depend on the processing

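Of 414 member values computed under alternatives, 412 kept their direction and their side of the threshold and none reversed. The exceptions were the abu-8 calls for 440 against 270 min given above, lost under DESeq2 and under the strain block. Counts of genes called moved by over 1.5 times with no filter on low counts, which admits many more genes to the test. They were then 5283 for 440 against 270 min (468 with the filter), 5291 for 650 against 440 min (544), 2962 for 830 against 650 min (238), 4904 for repeats E against D (3013), 4632 for F against E (2666) and 1762 for G against F (1134). Leaving out 1 repeat at a time gave 3047 to 3665, 2753 to 3282 and 977 to 1515 genes for the 3 repeat comparisons.

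With strain as a replicate block, 467, 552 and 245 genes were called in the 3 strain comparisons, and it changed no other member call. Repeat numbers of strain 522 did not pair the libraries (median correlation of same-numbered deviations -0.11 for F against E), and with them as a block 2955, 2649 and 1077 genes were called. The summed level of all 8 genes in line 508 over the median of the others was 0.959 to 1.07 under other scalings and without line 516, and that of the 5 late genes 0.00846 to 0.00946. Depth also limits the low values: at 650 min, 3 counts were worth 35.2 CPM in line 508 and 10.8 CPM in line 516, and the exact 95% upper limit at 0 counts was 43.2 CPM in line 508 and 13.3 CPM in line 516.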
